A study of Rattus norvegicus with 6 samples.

Results

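The comparison described here is 1 array of 6, on which kidney RNA pooled from 7-day-old Cy/Cy rats was set against kidney RNA pooled from +/+ rats of the same age. It was found by its sample title. The array carried 43379 spots other than controls, for 41012 probes, and 26442 probes lay well above background in both channels. Of 16451 named genes on the array, 11790 were measured in this way, through 15556 probes. All members of a comparison on 1 array share that array, so no test was possible and every value below is a description of these 2 labelled pools.

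Rats of the Han:SPRD strain carry the Cy mutation, a missense change in Anks6, and develop polycystic kidney disease. Heterozygous Cy/+ rats have a slowly progressive disease and homozygous Cy/Cy rats an early and severe one. Total RNA was taken from the left kidney of rats aged 3 or 7 days, pooled by genotype (+/+, Cy/+ or Cy/Cy) and labelled with Cy5. Each Cy5 pool was hybridised together with a Cy3-labelled +/+ pool of the same age. All groups therefore share the strain and the +/+ genotype of their reference. Whether the same Cy3 pool served all arrays of an age is not stated. The number of rats per pool is not given in the sources used here, dyes were not exchanged, and each genotype had 1 array at each age. In whole-kidney RNA, fewer cells of a type and less RNA per cell cannot be told apart.

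On this array 67.8% of spots lay well above background in Cy5 and 65.4% in Cy3, the median spot signal was 176 in Cy5 against a background of 46 and 113 in Cy3 against 38, and no spot was saturated. The 7-day arrays shared 1 slide, with the genotypes at fixed positions, so age and slide, and genotype and position, cannot be told apart. The 2 arrays labelled +/+ stood apart from their reference and went against their label, as 13.2% of genes on the 3-day one had a log2 ratio of at least 1. They are used below for values set beside a result and, for 1 count in each direction, to leave out genes high on the 3-day one. Most kidney markers lay well above background in both channels. They were 35 of 36 proximal tubule genes on the array, 14 of 14 podocyte genes and 13 of 13 thick ascending limb genes. By the same measure 12 of 13 skeletal muscle genes did so in each channel, so it cannot settle the tissue. The summed normalized Cy3 level was 462825 over the 36 proximal tubule genes and 6055 over the 13 muscle genes.

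The nephron is a chain of segments with different tasks. The proximal tubule takes back most of the filtered sugar, amino acids, phosphate and organic acids, burns fatty acids for energy and matures during the first weeks after birth in the rat. In polycystic kidneys tubules widen into cysts, and the Cy mutation has been tied to cilium-associated proteins. The study from which these arrays come asked which signalling routes, RXR signalling among them, were altered in Cy kidneys before and while cysts grew.

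Some 60-base probes of genes described below are printed to show what a ratio is read from. Those of Adipoq, Rhox5 and Anks6 and the second one of Sult1c2 stand for their genes, and the others are further probes of their genes. Coordinates are of build rn3, as the deposited files give them, and a span longer than the probe is given where the files do so. The first 2 belong to near copies of a sulfotransferase, and their longest shared run, 21 bases, is in capitals. In their best ungapped alignment 43 of 48 bases matched, so a signal on either may hold RNA of the other.

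Sult1c2 (chr9:591102-591161): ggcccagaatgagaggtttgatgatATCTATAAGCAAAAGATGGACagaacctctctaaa

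Sult1c2a (chr9:996120-996179): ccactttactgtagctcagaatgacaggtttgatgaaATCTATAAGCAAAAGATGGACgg

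Sult1c2 (chr9:994117-994309): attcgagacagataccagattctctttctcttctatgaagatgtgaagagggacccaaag

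Pter (chr17:87285426-87285485): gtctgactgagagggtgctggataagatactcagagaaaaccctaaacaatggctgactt

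Adipoq (chr11:79966064-79966123): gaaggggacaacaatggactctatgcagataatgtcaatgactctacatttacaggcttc

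Rhox5 (no coordinates in the files): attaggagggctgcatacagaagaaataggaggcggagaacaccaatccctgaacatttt

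Alb, a dimmer probe than the one that stands for the gene (chr14:19137676-19137735): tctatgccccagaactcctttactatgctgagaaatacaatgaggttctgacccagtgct

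Anks6, the mutated gene (chr5:63643642-63645033): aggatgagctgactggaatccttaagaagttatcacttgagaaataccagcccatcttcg

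The 2 pools differed little. The log2 ratio of Cy5 over Cy3 had a median of 0.01 and an SD of 0.170 over the 11790 genes, and 82.0% of genes lay within 0.2 of 0. Genes at least 1.5-fold higher in the Cy/Cy pool numbered 67, which is 0.568% of those measured, and 25 genes (0.212%) were at least 1.5-fold lower, so 72.8% of the genes past that fold were higher. Only 4 genes (0.0339%) were at least 2-fold higher and 6 (0.0509%) at least 2-fold lower. With the array centred on its median and no loess curve, the median of all genes moved to 0.35 and the counts to 2210 higher and 13 lower, 99.4% of them higher. With that median set back to 0 the counts were 238 higher and 557 lower. With the scanner software's own log ratio they were 115 higher and 63 lower, 64.6% of them higher. The split between higher and lower therefore depends on the scaling.

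**Figure D1:**
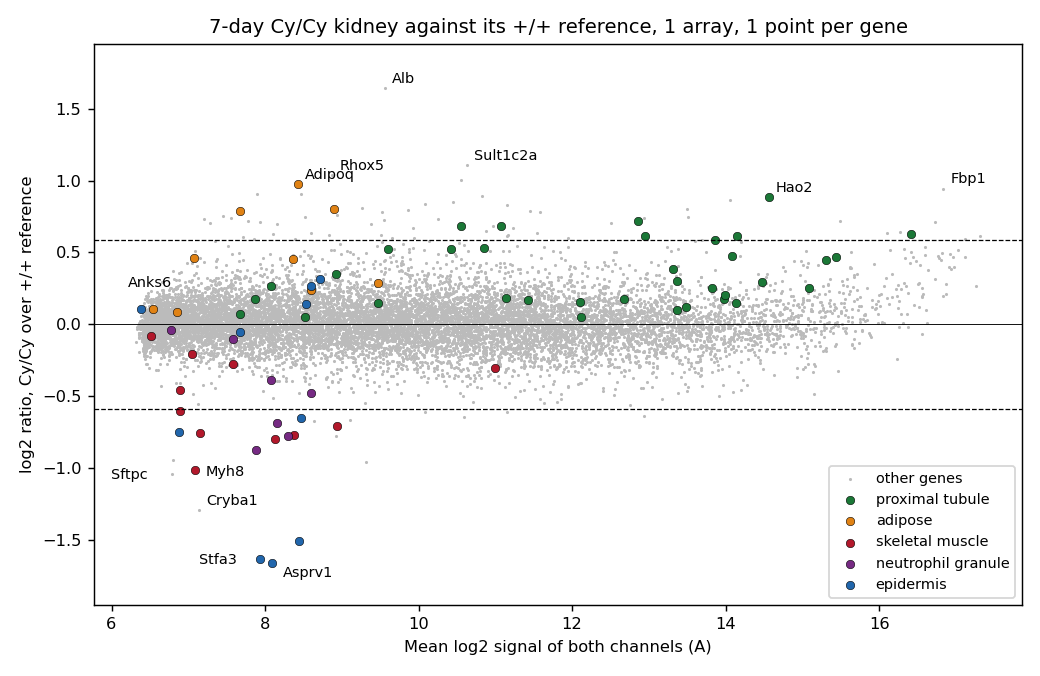
Log2 ratio of the Cy/Cy pool (Cy5) over the +/+ reference (Cy3) on the 7-day array, plotted against the mean log2 signal of both channels, 1 point per named gene (11790 genes). Coloured points are members of 5 gene lists, and dashed lines mark 1.5-fold. All 35 proximal tubule genes lie above 0 and all 11 skeletal muscle genes below it.

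Repeats within the array give a scale for these ratios. The 199 probes with replicate spots had a pooled SD of 0.0478 in log2 ratio between spots. In the 3037 genes with at least 2 measured probes the pooled SD between probes of a gene was 0.126, which takes in cross-hybridisation and splice forms but not variation between rats. Of the 67 higher genes 12 had at least 2 measured probes, on the same side of 0 in 11 and all past 1.5-fold in 5. Of the 25 lower genes 7 had at least 2, on the same side in 6 and all past the fold in 1.

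Genes of the proximal tubule lay above the reference as a group. Of 35 measured, 8 were at least 1.5-fold higher and 0 lower, and all 35 had a ratio above 0. Among all genes 0.568% were that much higher, 0.212% that much lower and 53.5% above 0. The median log2 ratio of the list was 0.30 against 0.01 over all genes. The summed normalized level of the list was 624241 in Cy5 and 462825 in Cy3. Relative to all genes the median was 0.29 with loess, 0.55 with median centring and 0.32 with the scanner software's own log ratio, so the direction did not turn with the scaling. Ratios reached from 0.05 to 0.88, and the list therefore did not shift as a block.

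Signals given for a gene are the mean spot brightness before correction. Cy5 was the brighter dye over the array, so the quotient of both signals is not the normalized ratio. The highest member was Hao2, a peroxisomal oxidase of hydroxy acids, with a signal of 52700 in Cy5 and 11100 in Cy3. Its log2 ratio was 0.88 (1.85-fold), and it stood at 0.42 in 3-day Cy/Cy and 1.16 in 7-day Cy/+. Cyp2e1, a cytochrome P450 that oxidises small solvents and ketones, had signals of 14720 and 3795 and a log2 ratio of 0.72, against 0.20 in 3-day Cy/Cy and 1.16 in 7-day Cy/+. On the 3-day Cy/+ array they stood at 0.52 and 0.03, so Hao2 was well above the reference in all 4 mutant pools, whereas Cyp2e1 was near it in the 3-day Cy/+ pool.

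Kap, an androgen-responsive protein of the proximal tubule, stood at 0.69, and Slco1a3, an organic anion carrier, at 0.68. The dicarboxylate carrier Slc13a3 stood at 0.63, the cystine carrier subunit Slc7a9 at 0.62 and Cltrn, the partner of neutral amino acid carriers, at 0.59. These 5 members of the list were likewise above 0 in 3-day Cy/Cy, with 0.50, 0.66, 0.52, 0.30 and 0.47. The eighth gene past the fold, Gatm, makes the first intermediate of creatine and had signals of 35600 and 9250. It stood at 0.61 at 7 days but at -0.44 in 3-day Cy/Cy, so it lay on opposite sides of its references at the 2 ages.

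At the other end of the list were the organic cation carrier Slc22a2 at 0.05 and the endocytic receptor Cubn at 0.05, well inside the SD between probes. Hnf4a, a transcription factor of the proximal tubule, stood at 0.07. The uptake receptor Lrp2 stood at 0.25, the phosphate carrier Slc34a1 at 0.30 and the glucose carrier Slc5a2 at 0.45. The list had a median of 0.15 on the 3-day Cy/Cy array and of 0.46 on the 7-day Cy/+ array.

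**Figure D2:**
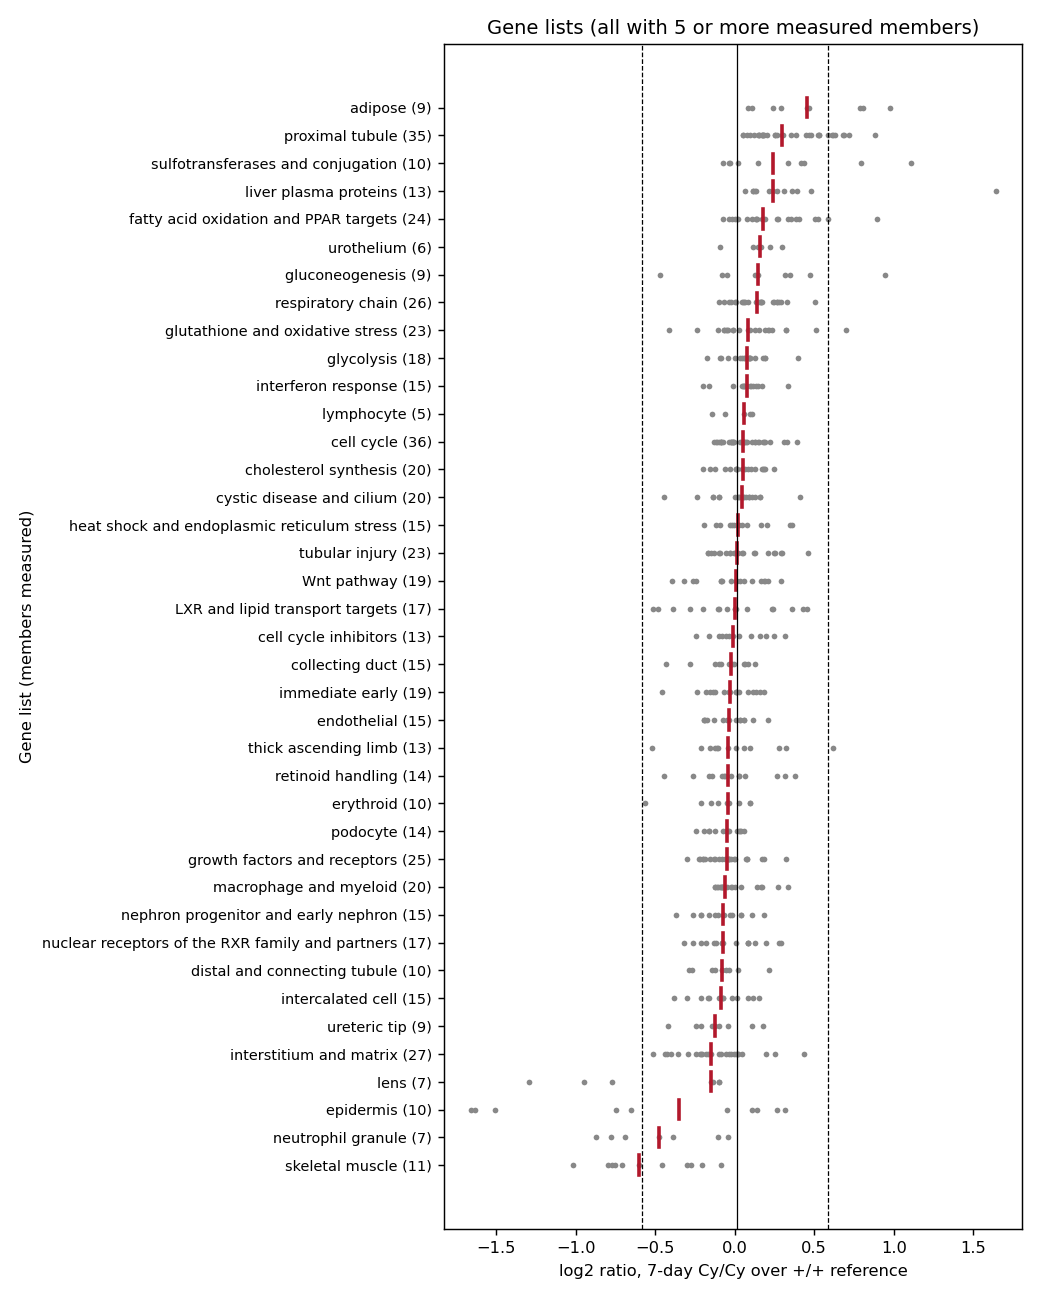
Log2 ratios of the members of gene lists with at least 5 measured members, 7-day Cy/Cy over its +/+ reference. Grey points are genes, red bars list medians, the solid line the median of all genes and dashed lines 1.5-fold; the highest medians are those of adipose (0.46) and proximal tubule genes (0.30) and the lowest those of skeletal muscle (-0.60) and neutrophil granule genes (-0.47).

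Metabolic lists that the proximal tubule uses lay slightly above the reference. For fatty acid oxidation and its PPAR-controlled genes, 21 of 24 were above 0, 1 was past 1.5-fold and the median was 0.18, against -0.17 in 3-day Cy/Cy. The gene past the fold was Cyp4a1, a fatty acid hydroxylase induced through PPAR alpha, with signals of 3610 and 895 and a log2 ratio of 0.89. The same gene stood at 0.12 in 3-day Cy/Cy and 0.62 in 7-day Cy/+. Acot1, a fatty acyl-CoA thioesterase, lay just inside the fold at 0.58, whereas Cpt1a, which brings fatty acids into mitochondria, stood at -0.03 and Ech1 at -0.07.

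Of 26 respiratory chain genes 22 were above 0 with none past the fold, and the median was 0.14. Sdha, a subunit of succinate dehydrogenase, was highest at 0.50 and Ndufv1, a subunit of complex I, lowest at -0.10. The 9 gluconeogenesis genes had a median of 0.14 and ranged from -0.47 for the co-activator Ppargc1a to 0.94 for fructose bisphosphatase, Fbp1. The brightest Fbp1 probe had signals of 276000 and 49300 and its second probe gave 0.39, so the gene lay above the reference on both probes while its size differed between them. Glycolysis genes (18 measured) had a median of 0.08, with Eno1 at 0.40 on its brightest probe (-0.02 on the other) and Gpi at -0.17.

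Conjugating enzymes held the highest ratio among genes with several measured probes, all on 1 side of 0. Of 10 measured genes of sulfation and conjugation 2 were past 1.5-fold and 7 above 0, with a median of 0.24. Sult1c2a, a cytosolic sulfotransferase, had signals of 3380 in Cy5 and 727 in Cy3 and a log2 ratio of 1.11 (2.15-fold). The 3 probes under its name gave 1.11, 0.83 and 0.49. By rn3 coordinates the first 2 lie at chr9:1030881-1030940 and chr9:1032194-1032253. The one at 0.49 lies nearer the brightest Sult1c2 probe, so the 3 may not be repeats of 1 gene. The neighbouring Sult1c2 stood at 0.79 on its brightest probe and 0.47 on the probe printed first. On the 3-day Cy/Cy array the 2 genes stood at 1.16 and 0.91 and in 7-day Cy/+ Sult1c2a stood at 1.97, so Sult1c2a was above the reference in each of these pools. Among the measured probes of each gene, the lowest ratio was that of the probe with the shared run of 21 bases printed above.

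Sult1b1 (0.43) lay between these and Sult2b1, which stood at -0.07. Papss1, which makes the sulfate donor, stood at -0.04. Of 23 genes of glutathione and oxidative stress 1 was past the fold, with a median of 0.08. That gene was Gclc, the catalytic subunit of the rate-limiting enzyme of glutathione synthesis, at 0.70, with 0.35 in 3-day Cy/Cy and 1.66 in 7-day Cy/+. Gsta2, a glutathione transferase, stood at 0.51 and the haem oxygenase Hmox1 at -0.41.

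Several other named genes had at least 2 measured probes, all above 0. Pter, a hydrolase strongly expressed in kidney, gave 0.76, 0.74 and 0.72 on 3 probes. Bhmt, which methylates homocysteine, stood at 0.75 on its brightest probe, the hydrolase Cmbl at 0.81 and Slco1a3 at 0.68. The alarmin Il33 stood at 0.67, the tight junction protein Cldn1 at 0.60, the retinol dehydrogenase Rdh16 at 0.53, the peroxisome factor Pex11a at 0.52 and the fatty acid carrier Slc27a2 at 0.48. Except for Pex11a (-0.22) and Il33 (0.00), each of these 9 genes lay above 0.1 in 3-day Cy/Cy as well.

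**Figure D3:**
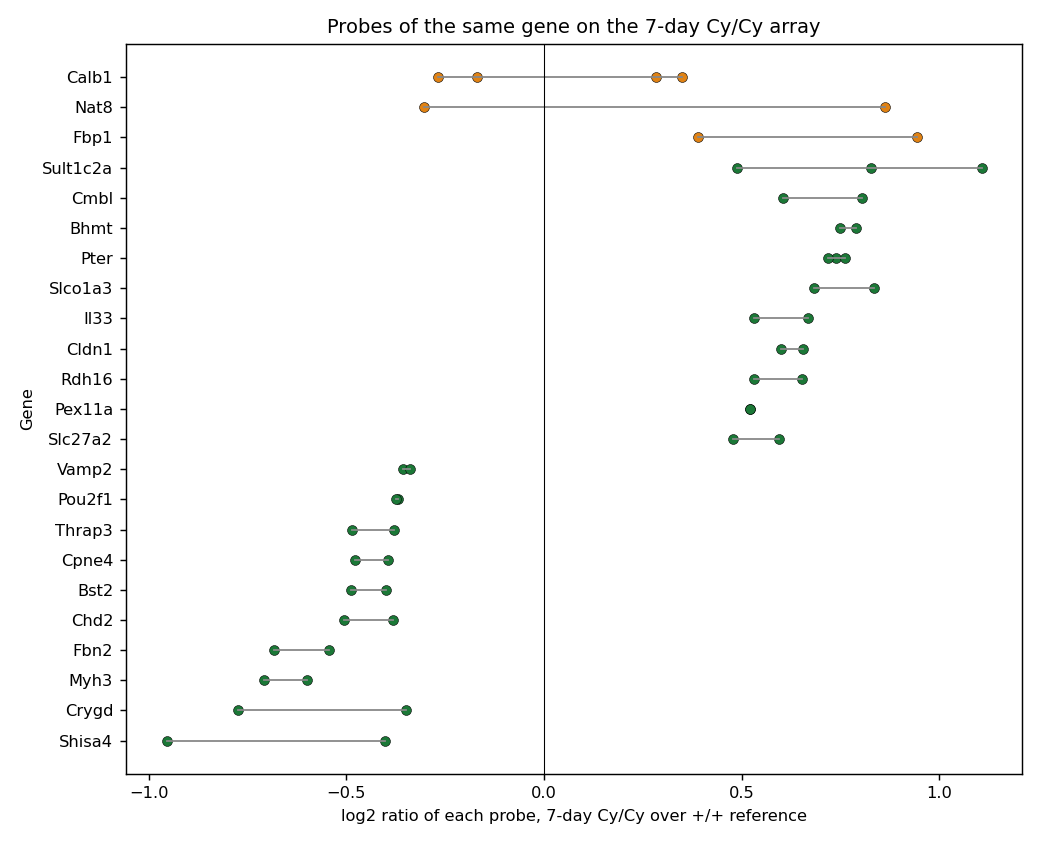
Log2 ratio of each measured probe for the 10 highest and 10 lowest genes ranked by the probe nearest to 0 (green) and for 3 genes whose probes disagreed (orange), 7-day Cy/Cy over its reference. The 3 Pter probes lie between 0.72 and 0.76, whereas the 2 Nat8 probes stand at 0.86 and -0.30.

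Not every gene held on its second probe. Nat8, an acetyltransferase of the proximal tubule, stood at 0.86 on its brightest probe and at -0.30 on another one, so its direction is not settled. The 4 measured probes of Calb1, the calcium-binding protein of the distal tubule, lay on both sides of 0, and its brightest one stood at -0.27.

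Of the highest genes outside these lists, Rhox5, a homeobox gene best known from the testis, had signals of 927 and 236 and a log2 ratio of 1.04. It stood at -0.13 in 3-day Cy/Cy, -0.28 in 7-day Cy/+ and 0.60 in 3-day Cy/+. Prss30, a serine protease, stood at 0.85 with 1.04 in 3-day Cy/Cy, and Dleu7 at 0.90 with 0.78. Prss30 and Dleu7 were thus above the reference at both ages, whereas Rhox5 lay above it in 7-day Cy/Cy and 3-day Cy/+ and below it in the other 2 pools.

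Among further genes, chosen after their values were seen, 3 of 17 measured Slc22 organic ion carriers were past the fold. They were Slc22a22 at 0.75, Slc22a25 at 0.69 and Slc22a24 at 0.62. The 17 had a median of 0.17 here and of -0.02 in 3-day Cy/Cy. Of all 266 measured Slc carriers 7 were past the fold upwards (2.63%) and 0 downwards. The shares over all genes were 0.568% and 0.212%. The flavin monooxygenase Fmo2 stood at 0.83. Of 91 cytosolic ribosomal protein genes Rpl23 (0.71), Rps6 (0.62) and Rps23 (0.59) were higher past the fold and Rps15 lower (-0.64), with a median of 0.01, so the family did not move together.

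Segments beyond the proximal tubule stayed near the reference. Thick ascending limb genes had 1 of 13 past the fold and a median of -0.04, and relative to all genes that median was -0.05 with loess but 0.19 with median centring. The gene past the fold was the potassium channel Kcnj16 (0.62). Egf stood at 0.32 and the calcium-sensing receptor Casr at -0.52. Of 10 distal and connecting tubule genes 8 lay below 0 (median -0.08), from Klk1, a kallikrein, at 0.22 to the calcium-binding S100g at -0.29.

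Intercalated cell genes had 11 of 15 below 0 and a median of -0.09, with the ammonium channel Rhcg at -0.38 and the proton pump subunit Atp6v1b1 at -0.30. Collecting duct genes had 11 of 15 below 0, with the water channel Aqp2 at -0.43, and their median relative to all genes was -0.04 with loess and 0.05 with median centring. In 3-day Cy/Cy the intercalated list stood lower, at -0.37. Podocyte genes (median -0.05, or 0.06 relative to all genes with median centring) ranged only from -0.24 to 0.06. No member of these 4 distal, collecting duct, intercalated or podocyte lists was past 1.5-fold, a count close to the background shares of 0.568% and 0.212%, and 53.5% of all genes lay above 0.

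Developing structures lay slightly below the reference. The ureteric tip list had 7 of 9 genes below 0 (median -0.13), with the ligand Gdnf at -0.42. Its member Wnt11 stood at -0.24 on its brightest probe and at 0.05 on the other. The nephron progenitor list had 11 of 15 below 0 (median -0.07), with Lhx1 at -0.37 and Wnt4 at -0.26. In 3-day Cy/Cy the same lists had medians of 0.09 and 0.08. None of their members was past the fold.

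Interstitial and matrix genes had 20 of 27 below 0, none past the fold, and a median of -0.15, which relative to all genes was -0.16 with loess and 0.09 with median centring. Fibrillin 1, Fbn1, stood at -0.52 on its brightest probe but at -0.02 on its other one. The laminin chain Lama5 stood at -0.44, whereas Postn stood at 0.43 and Lum at 0.25. Fbn2, the fibrillin of developing tissue, stood below 0 on both of its probes, at -0.55 on the brightest and -0.68 on the other. On the 3-day Cy/Cy array Fbn1 and Fbn2 stood at 0.27 and 0.20.

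Nuclear receptors of the RXR family and their partners showed no member past the fold among 17. Their median was -0.08, with Rxra at -0.08, Rxrb at -0.26 and Rxrg at -0.18. The bile acid receptor Nr1h4 stood highest at 0.29 and the thyroid hormone receptor Thra lowest at -0.32. Retinoid handling genes had a median of -0.04 and no gene past the fold, from the esterifying enzyme Lrat at -0.45 to the retinol dehydrogenase Rdh10 at 0.38. Genes of lipid transport under LXR had a median of 0.00, with Abca1, a cholesterol exporter, at -0.51 and Cd36 at 0.46. Lrat stood on the other side in 3-day Cy/Cy (0.43).

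Anks6, the mutated gene, had signals of 159 in Cy5 and 95.7 in Cy3 and a log2 ratio of 0.16 on its only measured probe. It stood at 0.13 in 3-day Cy/Cy and 0.16 in 7-day Cy/+. A missense change need not alter the level, and this probe does not check the genotype. Of 20 measured cystic disease and cilium genes none was past the fold and the median was 0.05, which relative to all genes was 0.03 with loess and -0.06 with median centring. Glis2, a transcription factor mutated in nephronophthisis, was highest at 0.41, and Bbs4 (-0.44) and Pkhd1 (-0.24), the gene of recessive polycystic disease, were lowest. The 3 measured Glis2 probes had a median of 0.20 and reached down to 0.15. The 3 measured Pkhd1 probes had a median of -0.04 and reached up to 0.02.

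Proliferation genes were near the reference at 7 days. None of 36 cell cycle genes was past the fold and the median was 0.05, against 0.28 in 3-day Cy/Cy and 0.24 in 7-day Cy/+. Ccne2, a cyclin of the entry into S phase, stood at 0.39 and Mcm4 at 0.33, while Top2a stood at -0.13 and Aurka at -0.11. The cell cycle inhibitor Cdkn1c stood at -0.24 on its brightest probe, and Cdkn1a at 0.25. The 4 measured Cdkn1c probes reached from -0.47 to 0.08, with a median of -0.34. Tubular injury genes had a median of 0.02 with none of 23 past the fold. Within that list Ccn2, a matricellular protein, stood at 0.46, Havcr1 at 0.05 and Lcn2 at -0.05.

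Immune lists other than that of neutrophil granule genes, described below, gave little. Macrophage and myeloid genes had a median of -0.06, none of 20 past the fold, and ranged from Csf1r at -0.13 to Ccl2 at 0.34. Endothelial genes ranged from -0.19 to 0.21. Erythroid genes had a median of -0.04, with Hbb lowest at -0.56 and the brighter Hbb-b1 highest at 0.10. Lists of cholesterol synthesis, growth factors and their receptors, the Wnt pathway, heat shock, interferon response, immediate early genes, lymphocytes, urothelium and adrenal gland likewise had no member past the fold. Their medians reached from -0.05 for growth factors to 0.27 for the 3 measured adrenal genes, and relative to all genes both turned sign with median centring, to 0.01 and -0.10.

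Genes of adipose tissue lay above the reference in the Cy/Cy pool. All 9 measured were above 0, 3 were past 1.5-fold, and the median was 0.46. Of all genes 53.5% were above 0 and 0.568% at least 1.5-fold higher. Relative to all genes the adipose median was 0.44 with loess, 0.30 with median centring and 0.56 with the software's log ratio. Adipoq, the adipocyte hormone adiponectin, had signals of 645 and 174 and stood at 0.97. The fatty acid binding protein Fabp4 stood at 0.80 and resistin, Retn, at 0.79. In 7-day Cy/+ the 3 genes stood at -0.12, 0.43 and -0.14, and in 3-day Cy/Cy at 0.69, 0.57 and 1.19. The 3-day Cy/+ array gave the highest values, 2.84, 2.19 and 2.68, so these genes were not high in Cy/Cy pools alone. Ucp1 of brown fat stood at 0.46 here and at 3.04 in 3-day Cy/+, and Pparg at 0.08 and Cidec at 0.11 were lowest. Car3, which is abundant in fat and muscle, stood at 0.91 here, 0.57 in 3-day Cy/Cy, -0.33 in 7-day Cy/+ and 3.04 in 3-day Cy/+. The part of fat tissue on or in the kidney was not tested.

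Among genes well above background in both channels the highest ratio belonged to Alb, serum albumin, which the liver secretes into plasma. Its brightest probe (chr14:19126980-19127039) had signals of 1890 and 297 and a log2 ratio of 1.64 (3.12-fold). The other 2 probes were not well above background in Cy3 and stood at 0.69 and 0.33. In 7-day Cy/+ the same probe stood at -1.18 and in 3-day Cy/Cy at 0.30, so it lay on opposite sides of the reference in the 2 mutant pools of 7 days. Afp, the fetal plasma protein, stood at 0.63. All 13 measured genes of liver plasma proteins were above 0 with 1 past the fold and a median of 0.24, but relative to all genes that median was 0.23 with loess and -0.04 with median centring. Of the 24 on the array 18 lay well above background in Cy5 and 13 in Cy3. Fga stood at 0.48, Apob at 0.07 and Fgg at 0.12. Without the adipose list and Alb the higher genes numbered 63.

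Among the genes lower in the Cy/Cy pool were members of lists for tissues other than kidney. Of 11 skeletal muscle genes 6 were past 1.5-fold, all 11 were below 0 and the median was -0.60. Of 7 neutrophil granule genes 3 were past it, all 7 were below 0 and the median was -0.47. Of all 11790 genes 0.212% were at least 1.5-fold lower and 5486 lay below 0. In lists written after the values had been seen, 5 of 10 epidermis genes, 3 of 7 lens genes and 1 of 3 lung genes were past the fold, with medians of -0.35, -0.15 and -0.08. Their counts describe genes already seen to be low and support nothing. The skeletal muscle and neutrophil granule lists were also written with earlier results of these data known. Their medians lay below that of all genes under each of the 3 scalings.

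The lowest ratio was that of Asprv1, a protease of the outer epidermis, with signals of 194 in Cy5 and 352 in Cy3 and a log2 ratio of -1.66 (3.16-fold lower). The protease inhibitors Stfa3 and Csta of epidermis and white cells stood at -1.63 and -1.51. The lens crystallins Cryba1 and Cryge stood at -1.29 and -0.95, and Sftpc, a surfactant protein from lung, at -1.04. Second probes of Stfa3, Csta, Cryba1 and Sftpc were not well above background in either channel and stood at -0.14, -0.05, -0.12 and 0.09. Cy5 signals were low, at 84.9 over a local background of 52 for Sftpc and 95.8 over 43 for Cryba1. In 7-day Cy/+ Asprv1 stood at -1.76, Stfa3 at -1.66, Cryba1 at -1.51 and Sftpc at -1.04, and in 3-day Cy/Cy Stfa3 stood at 0.33, Csta at 0.30 and Cryba1 at -0.06. On that array Asprv1, Cryge and Sftpc were not well above background in both channels, so no ratio is read from them there. The 7-day arrays may share 1 reference pool, so the 2 values of 7 days are not separate repeats.

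Muscle genes past the fold were the myosins Myh8 (-1.01) and Myh3 (-0.71), the troponins Tnni2 (-0.80) and Tnnc2 (-0.75), the light chain Myl11 (-0.77) and the creatine kinase Ckm (-0.60). Those nearest to 0 were Atp2a1 at -0.08 and Actn3 at -0.20. The granule proteins past the fold were RatNP-3b (-0.87), Defa5 (-0.77) and Camp (-0.69), and S100a8 stood at -0.47. Krt14 (0.32) and Sprr1a (0.27) of the epidermis list lay above 0, so that list was not shifted as a whole.

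**Figure D4:**
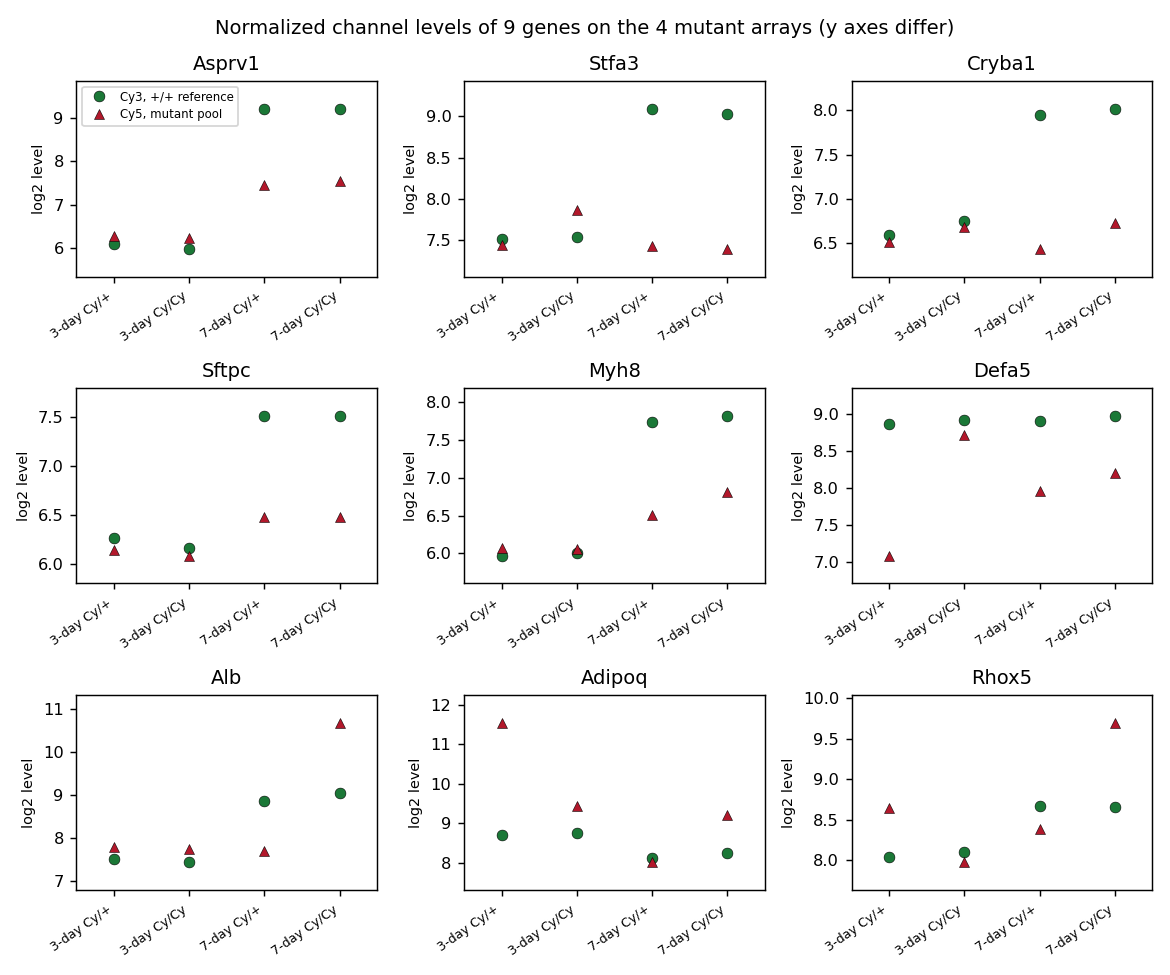
Normalized log2 level of 9 genes in the Cy5 channel (mutant pool, triangles) and the Cy3 channel (+/+ reference, circles) on the 4 mutant arrays; y axes differ between panels. The Cy3 level of Asprv1 is 9.20 and 9.21 on the 7-day arrays and 5.98 and 6.10 on the 3-day arrays, where it is not well above background in both channels, whereas the Alb level of Cy5 is 10.68 in 7-day Cy/Cy alone and 7.68 to 7.79 in the other 3 pools.

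Channel levels of some of these genes follow, and between the 7-day and 3-day arrays age, slide and reference pool cannot be told apart. In the 7-day reference the normalized log2 Cy3 level of Asprv1 was 9.20 on this array and 9.21 on the Cy/+ array, against 5.98 and 6.10 on the 3-day arrays, where Asprv1 was not well above background in both channels. Its Cy5 level was 7.54 in 7-day Cy/Cy and 7.45 in 7-day Cy/+. Stfa3 had Cy3 levels of 9.03 and 9.09 at 7 days against 7.54 and 7.51 at 3 days, and Sftpc 7.52 and 7.51 against 6.16 and 6.26, the last 2 again not well above background in both channels. The mutant pools of 7 days had Sftpc levels of 6.48 and 6.48. Defa5 differed from these, with a Cy3 level between 8.86 and 8.98 on all 4 arrays.

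The same genes were high in Cy5 on the 3-day array labelled +/+, where 19 of the 25 lower genes had a log2 ratio of at least 1 (13.2% of all genes did) and their median was 4.41. Of the 67 higher genes 21 had at least 1 there and 33 at most -1, which 6.38% of all genes had. Without genes that high on it, 6 lower and 46 higher genes were left. The summed level of the skeletal muscle list was 4423 in Cy5 and 6055 in Cy3 on the 7-day Cy/Cy array, with 12 of 13 genes on the array well above background in each channel, and 4799 and 5105 on the 3-day Cy/Cy array. For the epidermis list the sums were 3380 and 4747 at 7 days and 3271 and 2953 at 3 days, and for the neutrophil list 2098 and 2920 against 3076 and 3069. The part that other tissues in the reference pool have in the lower ratios was not tested.

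Lower genes with repeat probes included few of these tissues. By the probe nearest to 0, the 10 lowest were Myh3, Fbn2, Shisa4, Bst2, Cpne4, Chd2, Thrap3, Pou2f1, Vamp2 and Crygd. Bst2, an interferon-induced membrane protein, stood at -0.49, the chromatin remodeller Chd2 at -0.51 and the vesicle protein Vamp2 at -0.36. Shisa4 stood at -0.96 on its brightest probe, the only gene of the list apart from Myh3 and Crygd past the fold there, and at -0.01 in 3-day Cy/Cy.

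**Figure D5:**
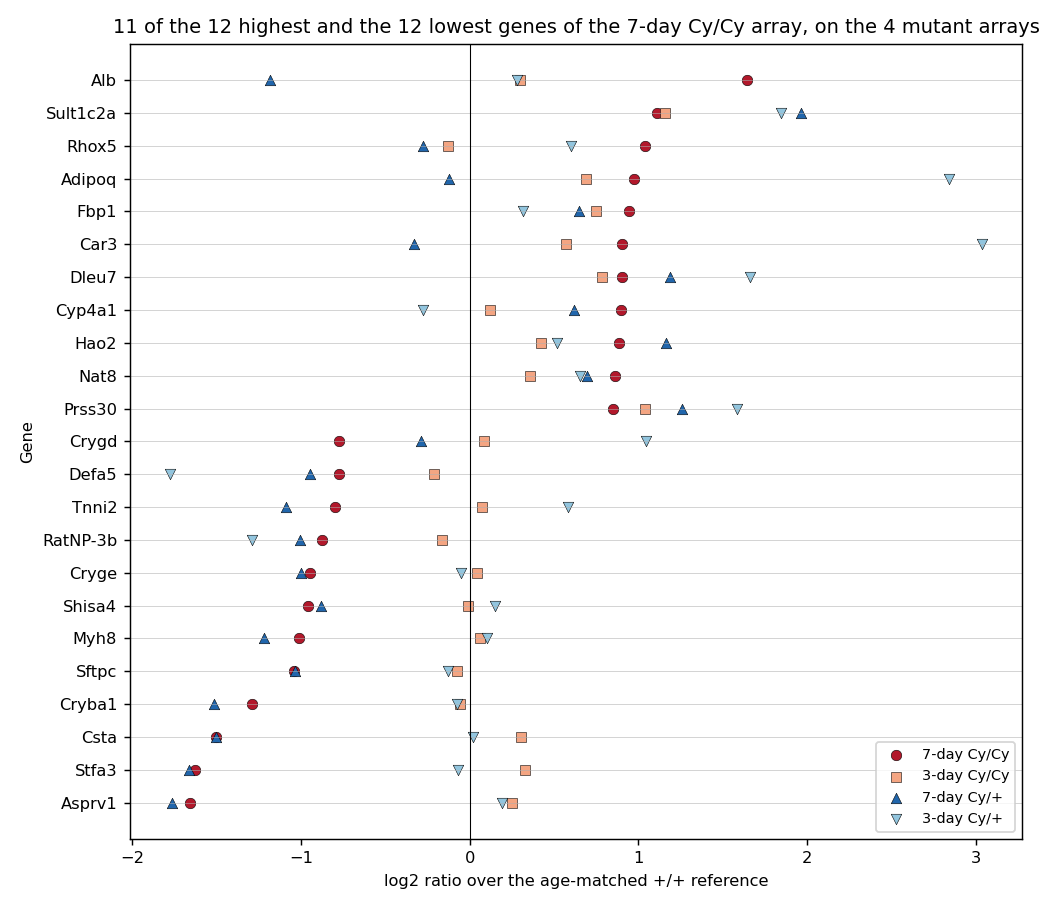
Log2 ratio over the age-matched +/+ reference of 11 of the 12 highest genes and of the 12 lowest genes of the 7-day Cy/Cy array, on that array and on the other 3 mutant arrays. Stfa3 stands at -1.63 on this array and at 0.33 on the 3-day Cy/Cy array, whereas Sult1c2a stands at 1.11 and 1.16 on the 2 Cy/Cy arrays. Points of Asprv1, Cryge, Sftpc and Myh8 on the 3-day arrays, of Cryba1 on the 3-day Cy/+ array and of Cryge on the 7-day Cy/+ array come from signals not well above background in both channels.

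The 3-day Cy/Cy array, with its own reference, gave a second view of the genotype, though at another age and on another slide. On it 72 of 11965 genes (0.602%) were at least 1.5-fold higher and 38 (0.318%) lower. All genes measured at 7 days had a median of 0.00 on it. Of the 67 genes higher at 7 days 60 lay above 0 at 3 days, with a median of 0.49, and 21 were past the fold. These 21 were 31.3% of the 7-day list and 29.2% of the 3-day list. Of the 25 genes lower at 7 days, 6 were not well above background in both channels at 3 days and could not be compared. Of the other 19, 10 lay below 0, the median was -0.01 and 0 were past the fold. Across the 11596 genes measured on both arrays r was 0.325 and rho 0.300, genes not being independent and both arrays having the same dye orientation.

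Brightness set limits at both ends. When genes were ranked by mean signal and split into 4 equal parts, the higher genes numbered 7, 19, 19 and 22 from the dimmest to the brightest part and the lower genes 7, 14, 3 and 1. A further 368 genes lay well above background in 1 channel only, 330 in Cy5 and 38 in Cy3. For these a bound was taken against the dim channel, at the lowest signal well above background on the array or at the probe's own signal where that was higher. Kcna2, a voltage-gated potassium channel, was at least 5.15-fold higher in the Cy/Cy pool, with signals of 468 and 48.4, but its Cy5 spot had a local background of 81 against a median of 46. Its probe reads as follows.

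Kcna2 (chr2:202526702-202526761): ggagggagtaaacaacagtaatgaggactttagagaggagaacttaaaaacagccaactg

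For the next 3 genes the probe's own dim signal was the higher, so the bound equals the measured ratio. Sdr42e1, a steroid dehydrogenase family member, was at least 2.05-fold higher, also over a local background of 73. The liver glycoprotein Ahsg was at least 1.91-fold higher and Krtdap of epidermis at least 1.66-fold lower. On the other arrays named, Kcna2 stood at 0.16 in 3-day Cy/Cy and -0.07 in 7-day Cy/+ and was not above background in both channels.

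Promoters of the higher genes were searched for 2 motifs of factors known from proximal tubule genes. RefSeq sequences of build GRCr8 from 250 bases before to 50 bases after the start were found for 58 of the 67 higher genes and 23 of the 25 lower ones. The motif of HNF1, a factor of proximal tubule and liver genes, was searched as the half-site GTTAAT, 1 base of any kind and the half-site's reverse complement, on both strands with up to 2 mismatches. It was found in 6 of the 58 (10.3%), in 1 of the 23 and in 1.22% of all 27457 promoters (1.1% of 9531 promoters of measured genes). The direct repeat bound by RXR partners and HNF4 is AGGTCA, 1 base of any kind and AGGTCA again. With the same limits it was found in 3 of the 58 (5.17%) and 0 of the 23. The share was 3.71% of all promoters and 2.74% of those of measured genes. A match is a likeness of letters only. The 6 genes were Alb, Afp, Cltrn, Cyp2e1, Slc22a22 and Slc7a9, of which Cltrn, Cyp2e1 and Slc7a9 are members of the proximal tubule list.

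The stretches of Cltrn, Cyp2e1 and Alb, with the matched bases in capitals, run from 190 to 31 bases before the start. Cltrn had 1 mismatch, and Cyp2e1 and Alb had 2 each.

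Cltrn (GRCr8 chrX:34027155-34027314, minus strand): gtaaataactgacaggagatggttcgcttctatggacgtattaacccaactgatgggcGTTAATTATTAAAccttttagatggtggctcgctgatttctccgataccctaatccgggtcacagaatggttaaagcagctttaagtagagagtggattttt

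Cyp2e1 (GRCr8 chr1:205269777-205269936, plus strand): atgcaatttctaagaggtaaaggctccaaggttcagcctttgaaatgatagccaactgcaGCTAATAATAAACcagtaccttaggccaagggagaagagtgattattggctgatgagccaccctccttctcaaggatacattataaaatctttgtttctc

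Alb (GRCr8 chr14:17907010-17907169, minus strand): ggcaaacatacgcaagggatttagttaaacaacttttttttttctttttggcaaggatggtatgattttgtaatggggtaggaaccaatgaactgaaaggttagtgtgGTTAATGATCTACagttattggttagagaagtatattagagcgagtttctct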

How the data were processed

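Kidney RNA was measured on 6 Agilent arrays of 2 colours. The deposited spot signals and local backgrounds are intensity values read by Agilent Feature Extraction 9.5.1.1, per the file headers, without normalization. Per the file headers, the deposited ratio per spot is a log10 value of the software's processed Cy5 over its processed Cy3. The column of the authors' value table for this array differed from it by 0 at most and had a median of 0. Where the series text and the headers name different array products and software versions, the headers were taken.

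In R 4.3.3 with limma 3.58.1, normexp with an offset of 50 was applied to mean signals, using median local backgrounds, followed by a loess curve for each array. Control spots and 129 spots with outlier flags had weight 0. Spots of a probe were averaged. A gene is its brightest probe well above background in both channels, and 1.5-fold (log2 0.58) counts as past the fold. Probes were named through a RefSeq list of genes (GRCr8, names only), with 10735 by their own accession, 117 by another, 1207 by gene ID, 5537 by symbol, 3704 by synonym, 41 matched several genes and 19671 none. With 1 array no test was run; values rest on the spread of repeat spots and probes and on the other arrays. Steps were tested on simulated ratios.

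The comparison, gene lists and motifs were chosen with earlier results of these data known. Genes named are the 12 highest and 12 lowest, the 10 highest and lowest by the probe nearest to 0, up to 4 members at the ends of each list, Anks6 and 4 bounds; others were chosen after their values were seen. Some genes and a list under this rule are not reported here. Alternatives were median centring, the software's log ratio, another offset, no background subtraction, a spatial correction, other filters, the median of probes, keeping outlier spots and a 2-fold limit.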

Additional observations from a re-analysis of the deposited data

Results flagged for a closer look

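Of the genes past 1.5-fold on the 7-day Cy/Cy array, 6 lay on the other side of the reference, by a log2 ratio of at least 0.32, on the 3-day Cy/Cy or the 7-day Cy/+ array, which share genotype or age with it. With 1 array each the difference was not tested. Alb stood at 1.64 and at -1.18 in 7-day Cy/+. Car3, a carbonic anhydrase, stood at 0.91 and at -0.33 in 7-day Cy/+. Gatm stood at 0.61 and at -0.44 in 3-day Cy/Cy. Gys2, the glycogen synthase of liver, stood at 0.74 and at -0.39 in 3-day Cy/Cy. Rec114, a gene of meiotic recombination, stood at 0.70 and at -1.07 in 3-day Cy/Cy. Stfa3 stood at -1.63 and at 0.33 in 3-day Cy/Cy. All values are log2 ratios over the reference of the same age. That reference is another pool at 3 days and may be the same pool for both arrays of 7 days.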

How the results depend on the processing

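The 67 higher and 25 lower genes became 2210 and 13 with median centring, 238 and 557 when the median of genes was then set to 0 (chosen after seeing the data), 115 and 63 with the software's log ratio, and 4 and 6 at 2-fold. Without genes high on the 3-day array labelled +/+ (also chosen after seeing the data) 6 lower and 46 higher genes were left. Offset 16 (79 and 31), no background subtraction (53 and 19), spatial correction (64 and 25), wider filters (70 and 26), the median of probes (65 and 22) and kept outlier spots (67 and 25) stayed within 1.5 times, and no named gene past the fold turned its sign. Of 42 list medians 12 changed side relative to all genes between scalings, and median centring moved 19 by more than the SD between probes. Beyond what centring and fewer genes do by construction, the cause was not tested. No paired analysis was possible because each group had 1 array and the result comes from no test. Leaving out a replicate was not possible for the same reason. Ratios of dim genes are limited by background, and 1 array without dye exchange holds any dye effect of a probe.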

Other observations

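Few probes without a gene name were past the fold. Of 10886 well above background in both channels, 15 were at least 1.5-fold higher and 11 at least 1.5-fold lower in the Cy/Cy pool. Among named genes the shares were 0.568% and 0.212%.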
